A study of Mus musculus with 26 samples.

Results

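Prostaglandins are lipid signals made from arachidonic acid, and 8 genes of their synthesis and reception were followed through ribosome-bound RNA of GnRH neurons and the remaining RNA of the mouse preoptic area. The genes were taken by name: the EP receptor genes Ptger1, Ptger2, Ptger3 and Ptger4, the cyclooxygenase genes Ptgs1 and Ptgs2, and the terminal synthase genes Ptges and Ptgds. All 8 of them stood among the 23107 genes of the deposited count table, and all 8 passed the filter on low counts. GnRH neurons release gonadotropin-releasing hormone and so drive the pituitary and the gonads. In the mice used, a GnRH-driven Cre recombinase (GnRH CRE) switched on a floxed L10a-GFP, a ribosomal protein fused to green fluorescent protein, so that tagged ribosomes could be pulled down with the RNA bound to them (translating ribosome affinity purification, TRAP). Every mouse carried both alleles, so the study's groups share them. The mice were adults of 55 to 165 days. The 4 conditions were intact females in diestrus (3 pools), ovariectomized females (3 pools), intact males (4 pools) and orchidectomized males (3 pools), the operated ones called gonadectomized here. Each of the 13 pools held the preoptic area of 5 to 7 mice and gave 2 RNAs, an immunoprecipitate enriched for GnRH neurons and a supernatant depleted of them, which makes 26 libraries in 8 groups.

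Cyclooxygenases turn arachidonic acid into the intermediate prostaglandin H2, from which terminal synthases make the individual prostaglandins. Ptgs1 encodes the widely expressed cyclooxygenase COX-1 and Ptgs2 the inducible COX-2. Ptges encodes microsomal prostaglandin E synthase, and Ptgds the lipocalin-type prostaglandin D synthase, a protein abundant in the leptomeninges, choroid plexus and oligodendrocytes. Prostaglandin E2 acts on the EP receptors, of which EP1 raises intracellular calcium, EP2 and EP4 couple to the stimulatory G protein and cyclic AMP, and EP3 mainly to inhibitory G proteins. In the hypothalamus, prostaglandin E2 is known as a signal released by astrocytes that excites GnRH neurons, and in the preoptic area it also mediates fever and takes part in the sexual differentiation of male behaviour.

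The DNA just upstream of the annotated start is shown for the EP receptor genes that the promoter table holds, and for Ptgs2, the inducible cyclooxygenase gene that is set beside Ptger4 in the results. Each line gives 250 bases ending at the base before the RefSeq start, 5′ to 3′ on the gene's strand, in the build GRCm38.p6 (mm10), with CpG dinucleotides in capitals.
Ptger2: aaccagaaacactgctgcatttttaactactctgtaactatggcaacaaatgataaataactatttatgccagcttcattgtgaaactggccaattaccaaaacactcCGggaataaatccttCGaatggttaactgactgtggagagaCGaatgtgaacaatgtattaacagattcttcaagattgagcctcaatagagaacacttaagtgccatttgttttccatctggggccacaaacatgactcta
Ptger3: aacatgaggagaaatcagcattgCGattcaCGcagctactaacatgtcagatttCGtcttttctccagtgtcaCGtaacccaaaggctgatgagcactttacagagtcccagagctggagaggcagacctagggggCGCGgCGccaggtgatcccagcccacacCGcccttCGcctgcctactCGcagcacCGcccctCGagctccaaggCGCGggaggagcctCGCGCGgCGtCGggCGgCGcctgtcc
Ptger4: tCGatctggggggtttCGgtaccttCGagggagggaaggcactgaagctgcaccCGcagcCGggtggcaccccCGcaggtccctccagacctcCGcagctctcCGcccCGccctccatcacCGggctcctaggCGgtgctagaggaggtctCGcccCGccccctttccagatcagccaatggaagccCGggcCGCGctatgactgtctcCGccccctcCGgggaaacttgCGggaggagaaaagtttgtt
Ptgs2: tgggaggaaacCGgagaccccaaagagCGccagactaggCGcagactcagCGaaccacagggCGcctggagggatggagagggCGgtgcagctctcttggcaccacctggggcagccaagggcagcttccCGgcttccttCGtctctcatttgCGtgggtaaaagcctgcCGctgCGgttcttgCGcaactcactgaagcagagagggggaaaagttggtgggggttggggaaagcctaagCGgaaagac
The Ptger2 sequence lies at chr14:44987861-44988110 on the plus strand, Ptger3 at chr3:157566626-157566875 on the plus strand, Ptger4 at chr15:5244188-5244437 on the minus strand and Ptgs2 at chr1:150099781-150100030 on the plus strand. The Ptger2 stretch had 38.0% G and C and 3 CpG, and 8.47% of the 32851 RefSeq promoter windows of the same length had a lower share. Ptger3 had 62.0% and 21 CpG, Ptger4 66.8% and 19 CpG, and Ptgs2 61.6% and 13 CpG, against medians of 52.4% and 6 CpG over all windows. Ptgs1 and Ptges had 48.0% and 59.6%, Ptgds 58.4% with 2 CpG, and the table had no entry for Ptger1. A search of both strands for TGACG, the core of the cyclic AMP response element, found no match in the 7 windows, and 17.8% of all windows held it. Bases after the annotated start and farther upstream were not searched. The search therefore cannot tell whether any of these genes, Ptgs2 included, has the element close by.

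The libraries held 27217252 to 56668581 counts each. The targeted neurons were checked by their own markers: all 5 GnRH neuron markers were higher in the immunoprecipitates, and Gnrh1, the hormone precursor gene, averaged 9941 ± 6573 CPM there (CPM, counts scaled to the size of the library; SD, n = 13 pools) against 252 ± 415 CPM in the supernatants. Markers of other cells were still measured in the immunoprecipitates. Of 10 markers each, 8 of astrocytes, 10 of oligodendrocytes, 5 of microglia and macrophages and 3 of meninges and choroid plexus were lower there, whereas 5 of 10 endothelial markers were higher. The immunoprecipitate of gonadectomized male pool 0 stood apart in endothelial markers (mean log2 CPM 4.95, next highest library 3.41) and in astrocyte markers (6.70, next 5.31). In the supernatant of intact male pool 3, blood markers stood apart (8.59, next 4.50). GnRH neuron markers stood apart in the supernatant of intact female pool 2 (5.25, next 4.55). Its Gnrh1, 1579 CPM, was the highest of the supernatants, whose median was 99.5 CPM. The immunoprecipitate of the same pool held the lowest Gnrh1 of the immunoprecipitates, 3174 CPM. The libraries are numbered from 1 to 30 in the labels; 4 intact pools, 2 of each sex, have the numbers 1 to 10, and their immunoprecipitates held Gnrh1 at 18980 ± 2130 CPM against 5924 ± 2026 CPM in the 9 pools numbered 11 to 30. What this numbering stands for is not given.

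The first comparison, immunoprecipitate against supernatant, asks which transcripts GnRH neurons hold more or less of than the surrounding tissue. Ptger2, the EP2 receptor gene, was the member that rose: 4.997 ± 2.76 CPM in the immunoprecipitates against 1.78 ± 0.467 CPM in the supernatants (SD, n = 13 pools). The difference was 2.74-fold (log2 1.45 ± 0.23 SE, adjusted p 2.31e-05), and the immunoprecipitate was higher than the supernatant of its own pool in 13 of 13 pools. Each adjusted p of a gene comes from edgeR's quasi-likelihood test with Benjamini-Hochberg adjustment over all tested genes. Across the 16713 genes tested, 42.9% were called in either direction at an adjusted p under 0.05, 21.3% higher and 21.6% lower, so 1 called member of 8 is fewer than this background share. The median log2 difference over the 8 members was -0.07, and -0.06 over all genes. With the pool kept as a block, which the labels support because each pool gave both RNAs, 46.2% of genes and 4 of 8 members were called: Ptger2 higher (log2 1.38, adjusted p 0.000357), and Ptger3, Ptgs1 and Ptgds lower. A higher or lower level in these bulk RNAs cannot be split into more or fewer cells of a type and more or less RNA per cell.

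**Figure D1:**
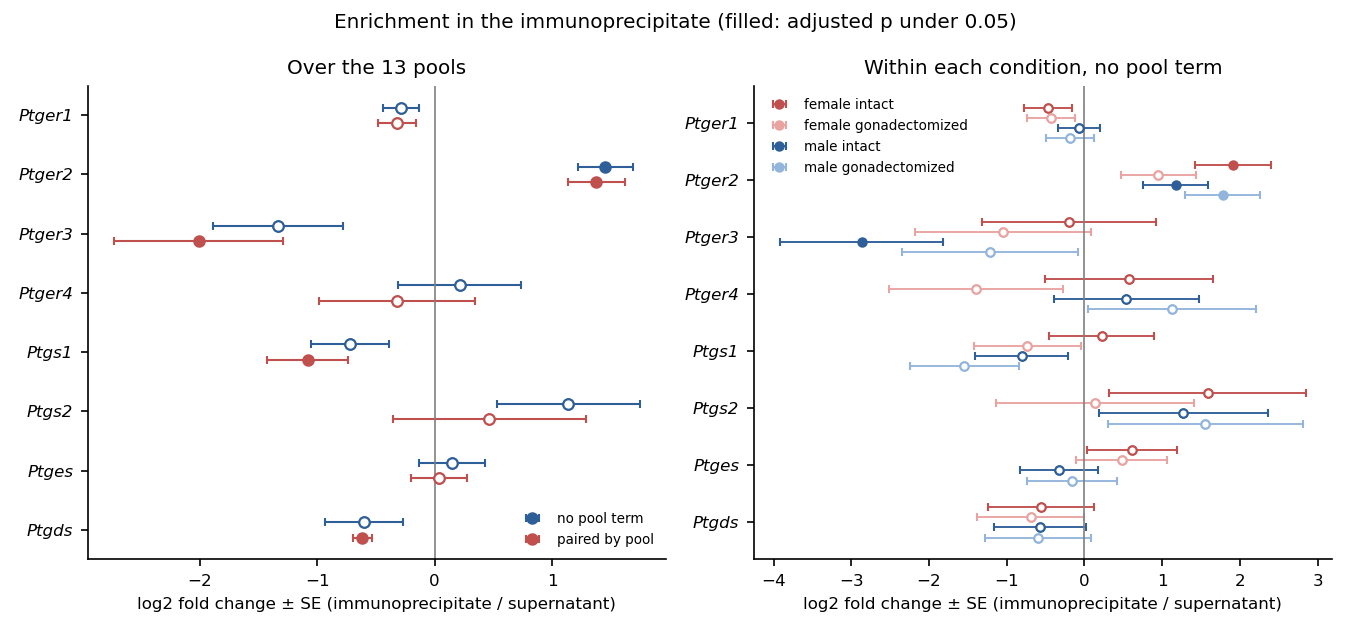
Log2 fold change of the immunoprecipitate over the supernatant for the 8 genes, with its SE. Left, over the 13 pools without and with the pool as a block. Right, within each condition without the block. Filled points passed an adjusted p of 0.05: Ptger2 alone without the block, and Ptger2, Ptger3, Ptgs1 and Ptgds with it.

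Among the 13 immunoprecipitates Ptger2 ran from 2.01 to 11.2 CPM with a median of 4.03, and among the supernatants from 1.08 to 3.003 CPM with a median of 1.78. In 10 immunoprecipitates it stood above every supernatant, and the ratio within a pool ran from 1.01 to 5.80. Here and for the other members, the share of all genes that do not overlap between the fractions was not counted. Such separation therefore cannot be called particular to a member. The intact female immunoprecipitates held 11.2, 9.82 and 2.72 CPM, and their supernatants 1.93, 3.003 and 1.36 CPM. Gonadectomized females held 4.02, 3.16 and 3.78 CPM against 2.14, 1.78 and 1.74 CPM. The groups overlapped in intact females, through pool 2, and did not overlap in gonadectomized females. Intact female pool 2 had the lowest Gnrh1 of all immunoprecipitates and the highest of all supernatants. Intact males had 2.27, 2.01, 5.67 and 5.42 CPM against 1.79, 1.99, 1.49 and 1.55 CPM, and gonadectomized males 4.03, 5.12 and 5.71 CPM against 1.42, 1.82 and 1.08 CPM. All male immunoprecipitates lay above all supernatants of the same condition, but those of intact male pools 0 and 1 by little. These were the immunoprecipitates highest in GnRH neuron markers (mean log2 CPM 7.83 and 7.93) and lowest in Ptger2. Intact female pools 0 and 1, next highest in these markers (7.66 and 7.53), were the highest in Ptger2. Of the 8 members' relations with Gnrh1 over the immunoprecipitates, 0 passed (permutation test of r, adjusted p under 0.05).

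Tested within each condition, Ptger2 was called in 3 of 4. It rose by 1.91 ± 0.49 (SE) on the log2 scale in intact females (adjusted p 0.00906), where 18% of all genes were called, by 1.17 ± 0.42 in intact males (adjusted p 0.0399; 25.9% of genes) and by 1.78 ± 0.49 in gonadectomized males (adjusted p 0.019; 10.7% of genes). The value in gonadectomized females was 0.95 ± 0.48 (adjusted p 0.285; 6.28% of genes). With the pool as a block the call in intact males was lost (log2 1.03, adjusted p 0.101), and the other calls held. These calls rest on few libraries. In intact females the call was lost without the immunoprecipitate of pool 0 (adjusted p 0.0536). In gonadectomized males it was lost without the supernatant of pool 0 (0.0752) or pool 2 (0.1) or the immunoprecipitate of pool 2 (0.0682). The call in intact males was lost without the supernatant of pool 0 (0.0742), 1 (0.0586), 2 (0.0952) or 3 (0.0921) or the immunoprecipitate of pool 2 (0.118) or 3 (0.109). Over all conditions no single library ended the call, and the log2 stayed between 1.38 and 1.58. Within the numbering, the value in intact females was 2.14 in libraries 1 to 10 and 0.99 in libraries 11 to 30, where intact females are 1 pool, and in intact males, with 2 pools each, 0.24 and 1.86. Whether the enrichment of Ptger2 differs between the sexes of intact mice was tested as a change of enrichment, which gave -0.74 ± 0.63 (SE; p 0.248, adjusted p 1.00). Of the other cell types, endothelial cells had 5 markers higher in the immunoprecipitates, and ependymal cells and tanycytes 1 of 7 (with 1 lower). Over the 13 immunoprecipitates Ptger2 had r 0.0945 and rho 0.214 with the endothelial markers (permutation p 0.76 and 0.48; adjusted 0.856 and 0.711) and r 0.331 and rho 0.231 with the ependymal and tanycyte markers (permutation p 0.27 and 0.45; adjusted 0.591 and 0.696). Without the immunoprecipitate of gonadectomized male pool 0, the highest in both lists, its log2 enrichment was 1.49. The part of these cells in the Ptger2 difference was not tested.

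Ptger3, the EP3 receptor gene, went the other way. Its supernatants ran from 1.72 to 5.02 CPM with a median of 3.75, and its immunoprecipitates from 0 to 5.24 CPM with a median of 0.929, 8 of them below every supernatant. The log2 difference of -1.33 ± 0.55 (SE) did not pass (adjusted p 0.0543), with 2 of 13 pools higher in the immunoprecipitate. With the pool as a block Ptger3 fell by 2.01 ± 0.72 (adjusted p 0.0335). Without the block it also passed when 1 of 5 immunoprecipitates was left out: intact female pool 1 (adjusted p 0.0276), gonadectomized female pool 1 (0.0299), intact male pool 2 (0.0348) or 3 (0.0441), or gonadectomized male pool 0 (0.0304). Intact males set the lowest end. Their immunoprecipitates held 0, 0.0793, 1.09 and 0.929 CPM, where 0 counts in pool 0 allow up to 0.0733 CPM, and their supernatants 4.33, 5.02, 2.92 and 3.14 CPM. Every one of these immunoprecipitates lay below every supernatant, and Ptger3 fell by 2.87 ± 1.05 there (adjusted p 0.0462), a call that the pool block did not keep (adjusted p 0.062) and that was lost without any 1 of the 4 supernatants or the immunoprecipitate of pool 0 or 1 (adjusted p 0.0616 to 0.114). The change of enrichment with the sex of intact mice was -2.67 ± 1.51 for Ptger3 (SE; p 0.0905, adjusted p 1.00). Pools crossed over only in intact females, which had 0.0796, 5.24 and 2.39 CPM against 3.75, 3.40 and 1.72 CPM, so that pools 1 and 2 were higher in the immunoprecipitate. Of these, pool 2 had the lowest Gnrh1 of all immunoprecipitates and the highest of all supernatants. In gonadectomized females 0 pools were higher in the immunoprecipitate, although the groups overlapped. In gonadectomized males every immunoprecipitate (3.86, 0.0415 and 1.97 CPM) also lay below every supernatant (4.88, 4.28 and 4.46 CPM). Their log2 difference of -1.22 ± 1.13 (SE) did not pass (adjusted p 0.579). The share of all genes without overlap between the fractions was not counted in either male group. Markers of several other cell types were lower in the immunoprecipitates as well: 8 of 10 of astrocytes, 10 of 10 of oligodendrocytes and 5 of 10 of microglia and macrophages, none at 0. Summed, the astrocyte markers ran from 395 to 2194 CPM there and from 514 to 916 CPM in the supernatants, the oligodendrocyte markers from 1299 to 2038 and from 2352 to 3248 CPM, and the microglia and macrophage markers from 42.5 to 94.3 and from 59.9 to 123 CPM. Over the 13 immunoprecipitates Ptger3 had r 0.720 and rho 0.764 with the microglia and macrophage markers (permutation p 0.007 and 0.0036; adjusted 0.0738 and 0.0477 over 232 relations), and r was 0.636 without the 2 pools farthest from the median and 0.581 in the 9 pools numbered 11 to 30. The part of these cells in the difference was not tested.

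Ptger4, the EP4 receptor gene, showed no consistent side. The log2 difference was 0.21 ± 0.53 (SE; adjusted p 0.774) and 8 of 13 pools were higher in the immunoprecipitate. Its immunoprecipitates spread from 0 to 6.75 CPM with a median of 2.03, against 0.778 to 2.05 CPM and a median of 1.17 in the supernatants. In intact female pool 0 it had 0 counts, which allow up to 0.0796 CPM, and gonadectomized female pool 2 and intact male pool 1 had 1 and 4 counts. The highest level, 6.75 CPM, was in the immunoprecipitate of gonadectomized male pool 0, the library that stood apart in endothelial and astrocyte markers. Without that library the log2 difference was 0.03.

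Ptger1, the EP1 receptor gene, did not pass either. Its immunoprecipitates averaged 5.57 ± 1.68 CPM and its supernatants 6.69 ± 0.816 CPM (SD, n = 13), a log2 difference of -0.29 ± 0.15 (SE; adjusted p 0.127). It passed without the immunoprecipitate of intact female pool 1 (adjusted p 0.0315) or intact male pool 0 (0.0415), the libraries highest in it. In mm10, Ptger1 lies on chromosome 8 from 83666678 to 83672753, Ptger2 on chromosome 14 from 44988195 to 45003820, Ptger3 on chromosome 3 from 157566892 to 157645888 and Ptger4 on chromosome 15 from 5206661 to 5244187. Ptgs1 lies on chromosome 2 from 36230426 to 36252272, Ptgs2 on chromosome 1 from 150100031 to 150108227, Ptges on chromosome 2 from 30889471 to 30929863 and Ptgds on chromosome 2 from 25466709 to 25470046.

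**Figure D2:**
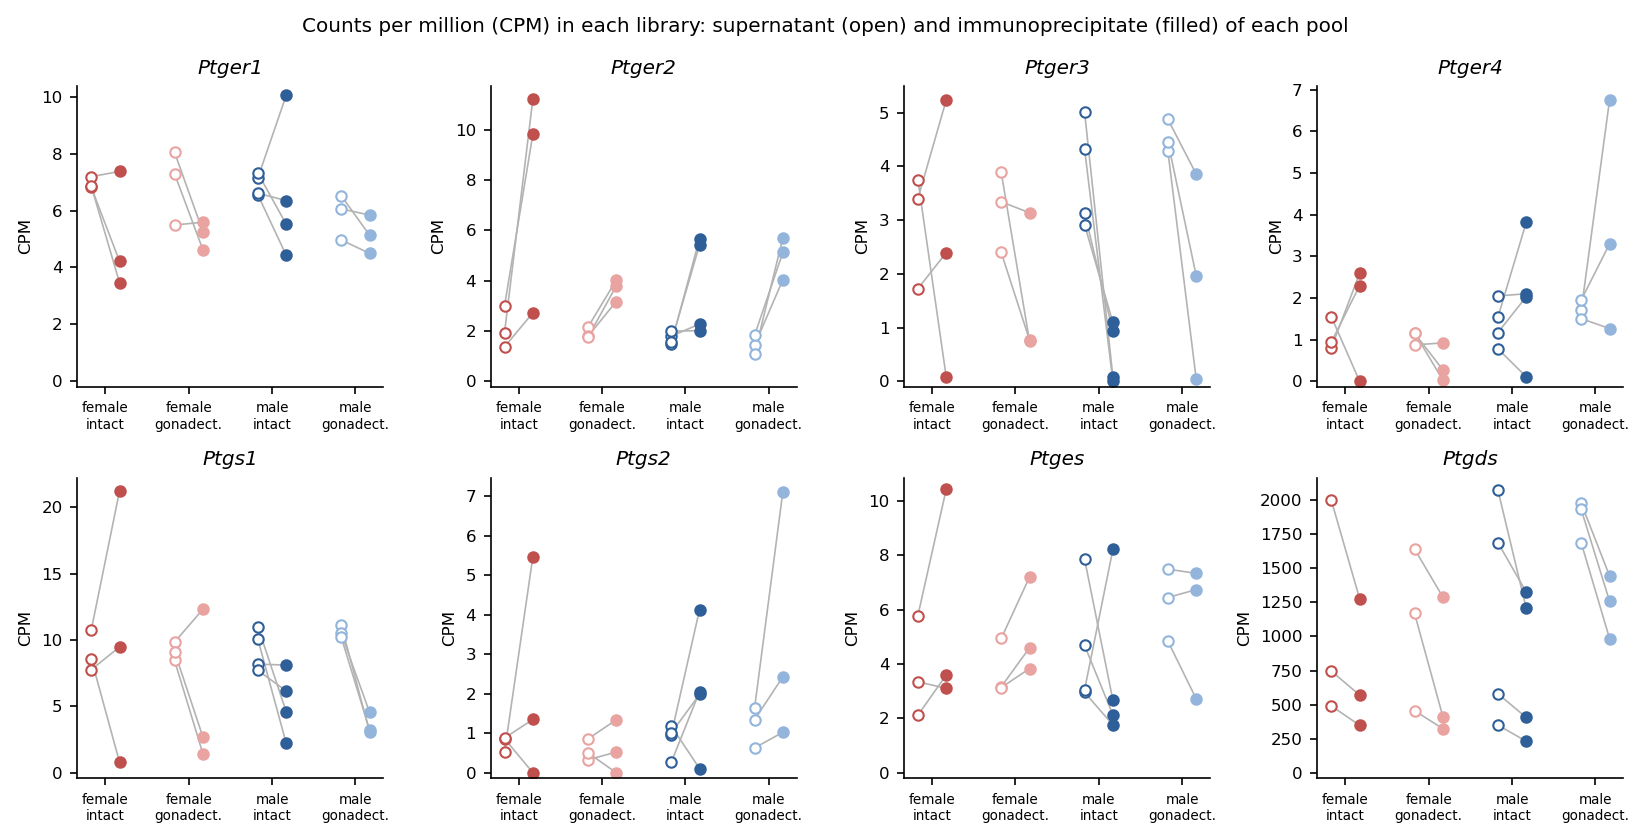
CPM of each gene in every library, with the supernatant (open) and immunoprecipitate (filled) of a pool joined by a line, in the 4 conditions. Ptger2 goes up in all 13 pools and Ptgds down in all 13, while the immunoprecipitates of Ptger3, Ptger4, Ptgs1 and Ptgs2 spread more than their supernatants.

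Of the cyclooxygenases, Ptgs1 was the more abundant per length in either fraction. Its supernatants were tight, 7.71 to 11.1 CPM with a median of 9.84, and its immunoprecipitates ran from 0.796 to 21.2 CPM with a median of 4.56. In 9 of them it lay below every supernatant, and above every supernatant in intact female pool 1 (21.2 CPM) and gonadectomized female pool 1 (12.3 CPM). The log2 difference was -0.72 ± 0.33 (SE; adjusted p 0.084), and with the pool as a block Ptgs1 fell by 1.08 ± 0.35 (adjusted p 0.0195). Leaving out 1 library at a time, the call without the block appeared without the immunoprecipitate of intact female pool 1 (adjusted p 0.0171) or of gonadectomized female pool 1 (adjusted p 0.00676), and with no other library. In gonadectomized males, every immunoprecipitate (3.10, 4.56 and 3.23 CPM) lay below every supernatant (11.1, 10.5 and 10.2 CPM), with a log2 difference of -1.55 ± 0.70 that did not pass (adjusted p 0.175). The share of all genes that separate in this way was not counted.

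Ptgs2 was low in both fractions. Supernatants ran from 0.259 to 1.63 CPM with a median of 0.86, and immunoprecipitates from 0 to 7.11 CPM with a median of 1.35. Its log2 difference of 1.14 ± 0.61 (SE) did not pass (adjusted p 0.137), although 10 of 13 pools were higher in the immunoprecipitate, and the estimate shrank to 0.47 with the pool as a block. In intact female pool 0 and gonadectomized female pool 2 the immunoprecipitate had 0 counts, which allow up to 0.0796 and 0.0742 CPM, and intact male pool 1 had 4 counts. Without the immunoprecipitate of intact female pool 0, Ptgs2 passed (log2 1.30, adjusted p 0.0476).

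Those are also the immunoprecipitates lowest in Ptger4, and both genes spread widely across pools. In the 10 immunoprecipitates with at least 10 counts of each, a set chosen after the values were seen, Spearman's rho between Ptger4 and Ptgs2 was 0.818 (permutation p 0.0055, adjusted 0.0605 over 11 relations within sets of pools) and Pearson's r 0.592 (permutation p 0.069, adjusted 0.286), both two-sided, so neither passed the adjustment. In the supernatants the 2 genes had r 0.121 and rho 0.165 over 13 pools (permutation p 0.69 and 0.59; adjusted 0.8 and 0.76 over 232 relations); the difference between the fractions was not tested.

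**Figure D3:**
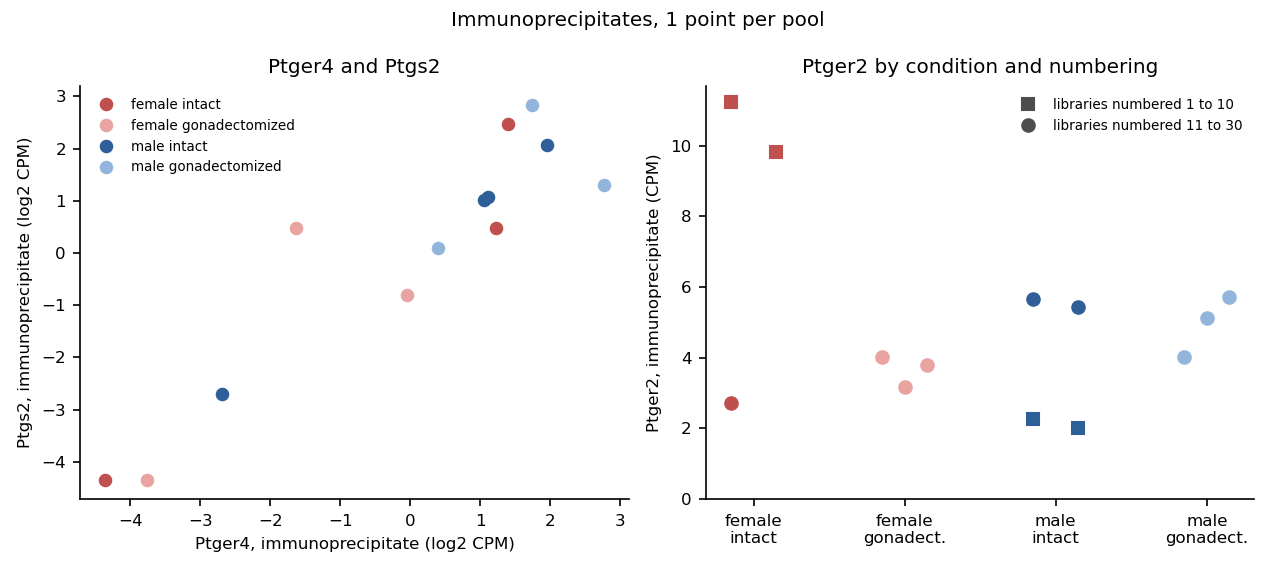
Left, log2 CPM of Ptger4 and Ptgs2 in the 13 immunoprecipitates; the 3 points at the lower left are the libraries with at most 4 counts of each gene. Right, CPM of Ptger2 in the immunoprecipitates by condition, with squares for libraries numbered 1 to 10: intact females at 11.2 and 9.82 CPM and intact males at 2.27 and 2.01 CPM.

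Ptges averaged 4.95 ± 2.73 CPM in immunoprecipitates and 4.60 ± 1.85 CPM in supernatants (SD, n = 13), and the log2 difference was 0.15 ± 0.28 (SE; adjusted p 0.699), with 7 of 13 pools higher. Its 95% interval ran from -0.43 to 0.73. In the supernatants Ptges ran from 2.12 to 7.86 CPM, with a gap between 3.34 and 4.69 CPM.

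Ptgds was the most abundant member, at 852 ± 470 CPM in immunoprecipitates and 1292 ± 676 CPM in supernatants (SD, n = 13). Per kilobase of exon its mean was 946 CPM in the immunoprecipitates, where the other members stood between 0.475 and 2.14. The immunoprecipitate was below its own supernatant in 13 of 13 pools, at a ratio of 0.351 to 0.785. Without the pool as a block the log2 difference of -0.60 ± 0.33 (SE) did not pass (adjusted p 0.147), except without the immunoprecipitate of gonadectomized female pool 1 (log2 -0.83, adjusted p 0.0466). With it, Ptgds fell by 0.62 ± 0.08 (adjusted p 3.03e-05), and it fell in each condition: in intact females by 0.51 (adjusted p 0.048) and after their gonadectomy by 0.78 (0.0126), and in males by 0.56 when intact (0.0116) and by 0.62 when gonadectomized (0.0288).

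By their Ptgds level the pools fell into 2 sets with a gap between them in the immunoprecipitates, and the same sets did not overlap in the supernatants. Levels in the supernatants were more graded. On the log2 scale, gonadectomized female pool 0 of the lower set (10.2) lay closer to gonadectomized female pool 1 of the higher set (10.7) than to intact female pool 0 (9.54). In 6 pools (intact female 0 and 2, gonadectomized female 0 and 2, intact male 0 and 2) the immunoprecipitates had 231 to 570 CPM and the supernatants 349.7 to 1169 CPM. In the other 7 the immunoprecipitates had 985 to 1445 CPM and the supernatants 1642 to 2075 CPM. All 3 gonadectomized male pools were in the higher set, which also held 2 female pools and 2 intact male pools, and the pools numbered 1 to 10 were split 2 and 2. The 10 markers of meninges and choroid plexus separated the same sets without overlap. Their mean log2 CPM was 2.34 to 3.15 against 3.79 to 4.39 in the supernatants, and 1.18 to 2.40 against 2.57 to 3.99 in the immunoprecipitates. Summed, these markers ran from 27.8 to 240.1 CPM in immunoprecipitates and from 65.4 to 331 CPM in supernatants, 3 of 10 were lower in the immunoprecipitates, and none was at 0. Ptges of the supernatants split the same way, at 2.12 to 3.34 CPM in the 6 pools and 4.69 to 7.86 CPM in the 7, and so did the mean log2 CPM of 10 endothelial markers there, at 0.688 to 1.13 and 1.41 to 2.21. Ptges of the immunoprecipitates did not split, at 1.76 to 8.22 CPM in the 6 pools and 2.13 to 10.4 CPM in the 7. The share of all genes that separate these sets was not counted, so the split cannot be called particular to Ptges. Because the sets do not overlap, relations of Ptgds and Ptges with these markers are given within the sets. Within the 6 lower pools, Ptgds of the supernatant and the meningeal and choroid plexus level had r 0.834 (exact permutation p 0.0417, adjusted over 11 relations 0.286) and rho 0.829 (exact permutation p 0.0583, adjusted 0.121), and within the 7 higher pools r 0.522 (exact permutation p 0.241, adjusted 0.334) and rho 0.429 (0.354, adjusted 0.486). For Ptges, rho with the same markers was 0.886 in the lower and 0.321 in the higher set (exact permutation p 0.0333 and 0.498, adjusted 0.121 and 0.608), with r 0.412 and 0.529 (0.34 and 0.233, adjusted 0.393 and 0.334). With the endothelial markers its rho was 0.829 and 0.75 (exact permutation p 0.0583 and 0.0663, both adjusted 0.121), with r 0.475 and 0.688 (0.357 and 0.0944, adjusted 0.393 and 0.286). None of these passed the adjustment. The part of these tissues in the Ptgds and Ptges values was not tested.

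**Figure D4:**
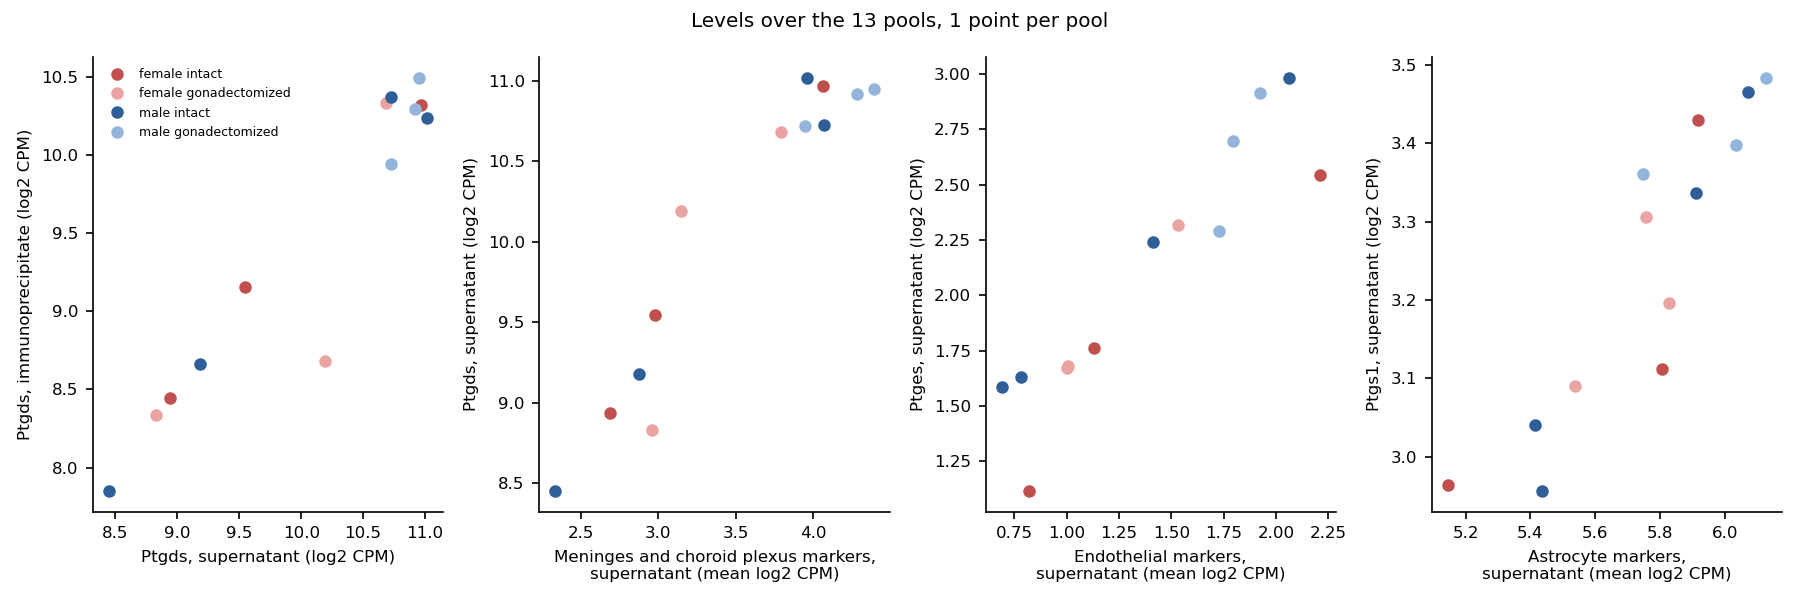
Log2 CPM over the 13 pools, 1 point per pool, by condition. From left: Ptgds in both fractions, Ptgds against the mean of 10 markers of meninges and choroid plexus, Ptges against 10 endothelial markers, and Ptgs1 against 10 astrocyte markers, the last 3 in the supernatants. Ptgds of the immunoprecipitates shows 2 groups of pools with a gap between them, and the same groups do not overlap in Ptgds or Ptges of the supernatants.

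Ptgs1 and Ptger3 rose and fell with astrocyte markers over the supernatants, and less closely with those of other cells, a difference that was not tested. For Ptgs1, r was 0.906 and rho 0.907 (permutation p 1e-05, the smallest possible, and 5e-05; adjusted 0.00116 and 0.00232), and 0.885 without the 2 pools farthest from the median. For Ptger3, r was 0.897 and rho 0.819 (permutation p 6e-05 and 0.0011; adjusted 0.00199 and 0.0196), and 0.802 without those pools. Within the pools numbered 11 to 30, r was 0.928 and 0.899. The permutations shuffled all pools regardless of condition, so these p values do not set differences between the conditions aside. Ptgs1 also had r 0.795 with microglia and macrophage, 0.758 with oligodendrocyte and 0.758 with mural markers (permutation p 0.0015, 0.0038 and 0.0026; adjusted 0.0232, 0.0441 and 0.0355), and Ptger3 r 0.755 with oligodendrocyte markers (permutation p 0.002, adjusted 0.029). In the immunoprecipitates the corresponding r values were 0.0284 and 0.402 (permutation p 0.93 and 0.18; adjusted 0.959 and 0.503). The genes most like Ptgs1 among 10635 genes of at least 5 CPM over the 13 supernatants were Mlc1 (r 0.959), Dhrs7 (0.956) and Slc10a4 (0.954), and those most like Ptger3 were Igsf1 (0.966), Slc39a12 (0.955) and Ednrb (0.944). None is given for Ptgds, whose pools are treated as 2 sets. Over the immunoprecipitates, the closest to Ptger2 were Tram1 (0.846), Lrp12 (0.831) and Sphk2 (0.826), to Ptger4 Fndc3b (0.921), and to Ptgs2 Hdac6 (0.877). These are descriptions over 13 libraries that share depth and composition.

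Compared per kilobase of exon, the order of the means differed between the fractions. In the immunoprecipitates it was Ptgds, Ptgs1 (2.14 CPM per kilobase), Ptges (1.36), Ptger2 (1.36), Ptger1 (1.19), Ptger4 (0.591), Ptger3 (0.497) and Ptgs2 (0.475). In the supernatants it was Ptgds (1434), Ptgs1 (3.31), Ptger1 (1.43), Ptges (1.26), Ptger3 (1.16), Ptger2 (0.483), Ptger4 (0.398) and Ptgs2 (0.189). Among the EP receptors Ptger2 stood first in the immunoprecipitates and behind Ptger1 and Ptger3 in the supernatants. In the immunoprecipitates, Ptges (SD 0.749), Ptger2 (0.75) and Ptger1 (0.359) did not differ from their neighbours among these 3 beyond their SDs, nor did Ptger4 (0.579), Ptger3 (0.528) and Ptgs2 (0.495) among themselves. The step from Ptger1 to Ptger4 was wider than either SD, and the step from Ptgs1 (SD 1.97) to Ptges was wider than the SD of Ptges but not that of Ptgs1. In the supernatants the step from Ptger3 (SD 0.307) to Ptger2 (SD 0.127) is wider than either SD. The spread between pools was larger in the immunoprecipitates for every member: the coefficient of variation was 106% against 26.4% for Ptger3, 97.9% against 32.5% for Ptger4, 91.7% against 13.1% for Ptgs1, and 55.2% against 52.3% for Ptgds.

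Sex and gonadectomy were compared within each fraction, which asks whether gonadal hormones or sex change these transcripts. No member passed in any of the 8 comparisons, nor in the 4 tests of a change in enrichment. Of 96 member tests in edgeR's quasi-likelihood fits, 0 were called and 0 had an unadjusted p under 0.05. DESeq2 called 0 and gave 2 such p values, and limma voom called 0 and gave 0. The background was low too. Among all genes, gonadectomy called 0% in female and 0% in male immunoprecipitates, 0.0122% in female and 0% in male supernatants. The sexes differed at 0.0248% of genes in intact and 0.0186% in gonadectomized immunoprecipitates, and at 0.0428% in either pair of supernatants. A change of enrichment was called for 0.00598% of genes with the sex of intact mice and for 0% in the other 3 tests.

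**Figure D5:**
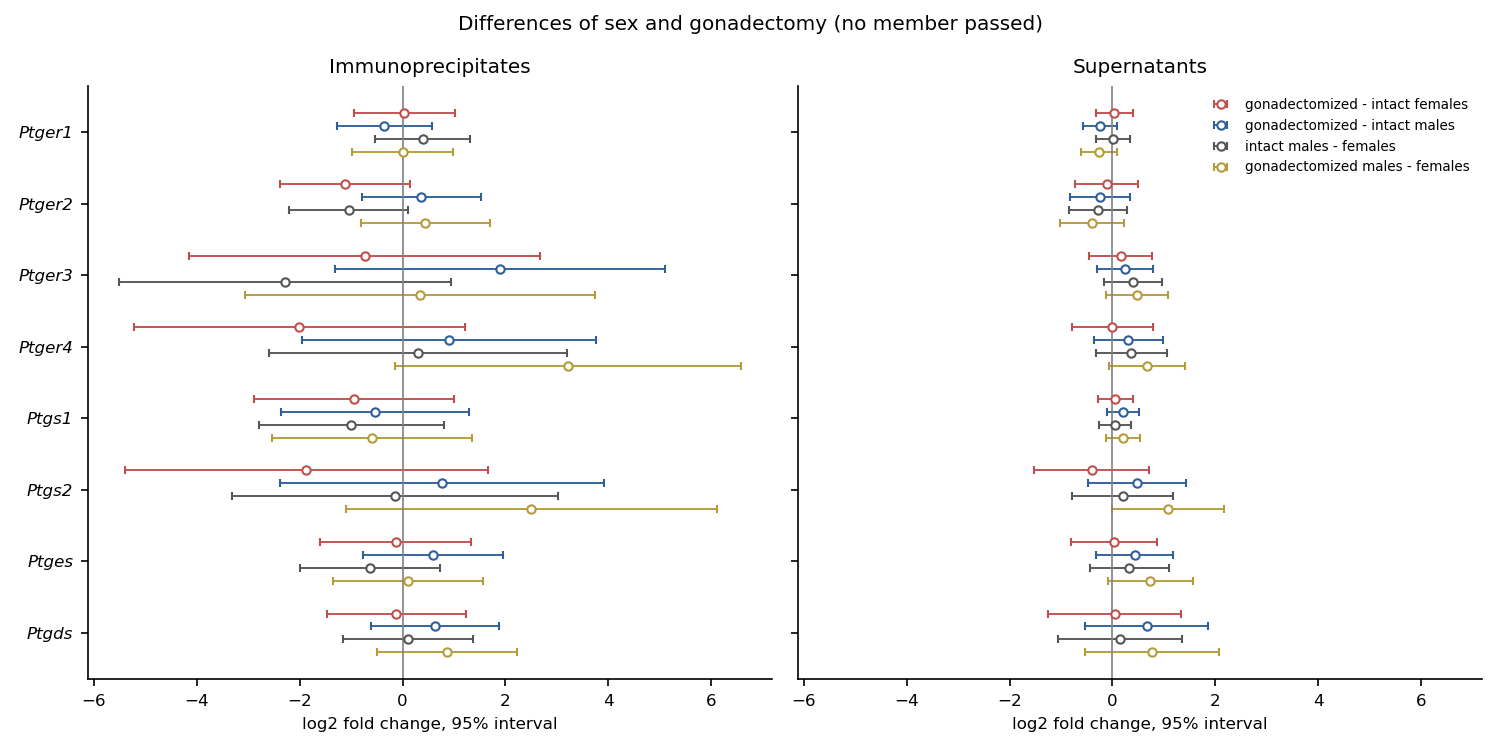
Log2 difference with its 95% interval for each gene in the 4 comparisons of sex and gonadectomy, in the immunoprecipitates (left) and the supernatants (right). No gene passed; the intervals are wide for Ptger3, Ptger4 and Ptgs2 in the immunoprecipitates and narrow for Ptger1 and Ptgs1 in the supernatants.

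For Ptger2 in the immunoprecipitates, intact males against intact females gave a log2 of -1.04 ± 0.54 (SE; p 0.0737, adjusted p 0.991), and gonadectomized against intact females -1.12 ± 0.59 (p 0.0787, adjusted p 0.994). Libraries numbered 11 to 30 hold 1 intact female immunoprecipitate (2.72 CPM), which is assumed to vary like the other groups. That immunoprecipitate was also the lowest in Gnrh1. Against it the sex difference was 1.02 and the gonadectomy difference 0.43. Within numbers 1 to 10, with 2 pools of each sex, the sex difference was -2.31 (p 0.0164, adjusted p 0.787), and no gonadectomized pool has such a number. In each fraction, Ptger4 was higher in gonadectomized males than in gonadectomized females without overlap. The male immunoprecipitates held 6.75, 3.30 and 1.26 CPM and the female ones 0.92, 0.273 and 0.0247 CPM, a log2 difference of 3.21 with a 95% interval of -0.15 to 6.58 (p 0.0598, adjusted p 0.595). Without gonadectomized male pool 0 it was 2.47. The supernatants held 1.71, 1.95 and 1.50 CPM in males and 0.872, 1.15 and 1.16 CPM in females (log2 0.68, interval -0.06 to 1.42; p 0.0705, adjusted p 0.281). In the supernatants of gonadectomized mice 4 of 8 members (Ptger3, Ptger4, Ptgs1 and Ptgds) had every male above every female, as did 13.3% of all tested genes; in the immunoprecipitates it was 2 of 8 (Ptger2 and Ptger4), and 11.5% of all genes. The 3 gonadectomized male pools were also all in the set high in meningeal markers, whose part was not tested. The lowest p of the 96 belonged to Ptgs2 in these supernatants, with 1.34, 1.63 and 0.626 CPM in males and 0.327, 0.854 and 0.505 CPM in females (log2 1.08 ± 0.51 SE, p 0.0512, adjusted p 0.24). The intervals differed widely. For Ptgs1 in the supernatants of females, the effect of gonadectomy was between -0.29 and 0.39 on the log2 scale, but for Ptger4 in the immunoprecipitates it was between -5.23 and 1.22.

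The rest of the pathway was described by lists chosen around these genes, and the share called in each list is to be read against the 42.9% of all genes called between the fractions. None of the 4 tested receptors for other prostanoids (Ptgdr, Ptgfr, Ptgir and Tbxa2r) was called between the fractions. Of 8 other terminal enzymes, the carbonyl reductase gene Cbr1, whose product can convert prostaglandin E2, rose by 0.69 ± 0.11 (SE; adjusted p 1.39e-05; 12 of 13 pools), while Hpgds, the hematopoietic prostaglandin D synthase, fell by 0.75 (adjusted p 0.0122) and Ptges3, the cytosolic prostaglandin E synthase and HSP90 co-chaperone p23, by 0.17 (adjusted p 0.0241). Of 10 genes of arachidonate release, the monoacylglycerol lipase gene Mgll rose by 0.28 (adjusted p 0.00913) and the phospholipases Pla2g4c and Pla2g4e fell by 2.42 and 0.39. Among 7 genes of transport and breakdown, Abcc4, a pump that exports prostanoids and cyclic nucleotides, rose by 0.77 (adjusted p 0.00111), and the degrading enzyme gene Hpgd stood at -0.09 (adjusted p 0.754). None of 9 genes of the leukotriene branch was called. Each of these 5 lists had a smaller called share than all genes.

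Genes that act downstream of the receptors are given beside the 21.3% of all genes called higher and 21.6% called lower. Of 19 genes of the stimulatory G protein, adenylyl cyclase and protein kinase A route, 2 rose and 12 fell, with a median log2 of -0.48. The adenylyl cyclases Adcy1 and Adcy7 rose by 0.85 and 0.66, and the kinase subunit Prkaca fell by 0.73 (adjusted p 1.68e-07; lower in 13 of 13 pools). Gnas, which encodes the stimulatory G protein itself, stood at 0.02 (adjusted p 0.813). Of 16 genes of the other G proteins, phospholipase C and receptor desensitization, 0 rose and 10 fell, with a median of -0.40, among them Gnaq (-0.84), the receptor kinase genes Adrbk1 (-0.75) and Adrbk2 (-0.86), and the arrestin gene Arrb1 (-0.69). Of 12 tested genes of the ErbB route, by which glia are known to release prostaglandin E2, 0 rose and 5 fell, with Egfr at -1.83 ± 0.47 (SE; adjusted p 0.00272) and Nrg3 at -0.78. Over all 16713 genes the median was -0.06. In the comparisons of sex, gonadectomy and their effect on enrichment, 0 of the 82 to 85 tested genes of these lists and the 8 members were called by edgeR.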

How the data were processed

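The authors deposited 1 table of estimated counts, with a row for each gene and a column for each library. Per the submitters' processing notes the build was mm10 and the tools were Cuffdiff 2.1.1, Cufflinks, Bowtie2 2.1.0, TopHat2 2.0.9 and FastQC. Which gene models were counted, and what became of multi-mapping reads, is not given in the sources used. Per the labels' protocols, cDNA came from a low-input SMART-Seq kit that does not mark strand, so reads of any gene and of an overlapping one on the other strand cannot be told apart. Of all values 98.5% were whole numbers; counts were rounded, and all 26 columns matched a library. Total counts ran from 27217252 to 56668581, and limits from counts without molecular identifiers cover counting error alone; for 0 counts the limit is 3 counts.

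Tests used edgeR 4.0.16 in R 4.3.3, with TMM factors, filterByExpr (minimum count 10, minimum total 15) and two-sided quasi-likelihood tests, called at an adjusted p of 0.05 over all tested genes; the SE is the log2 difference over the square root of F, and 95% intervals use the t distribution on the degrees of freedom of the test. Fractions were compared on all 26 libraries in 8 groups, and conditions on the 13 libraries of a fraction. A positive difference means higher in the immunoprecipitate, after gonadectomy or in males. CPM were scaled to the TMM library size, and log2 CPM uses a prior count of 2. The pool ties both fractions, per the labels: deviations of the 2 RNAs of a pool correlated at 0.0143 to 0.17, and 7 of 13 libraries correlated best with their own pool. No 2 replicates agreed within sampling noise. Pools are separate sets of mice.

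Marker lists, pathway lists and members were chosen with earlier results of these data known. Named genes were the members, up to 4 called genes of each pathway list with the largest change, the called synthases and receptors, markers as checks, and the 3 most like genes, from which some are given. Gnas, Hpgd and the prostanoid receptors, which passed no test, were named after their values were seen. Of the relations over pools, 232 were tested with 100000 permutations, and 11 more within sets of pools were added after the values were seen. The permutations for the 232 shuffled all pools regardless of condition. Positions and exon lengths come from GENCODE on mm10, and promoter windows from RefSeq. Alternatives were DESeq2 1.42.0 with its size factors or Wald test, limma 3.58.1 voom, other filters, library numbering, blocks and leaving out libraries. The fits were tested on simulated data.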

Additional observations from a re-analysis of the deposited data

Results flagged for a closer look

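Ptges stood at 8.22 CPM in the immunoprecipitate of intact male pool 2, where the other 3 pools of that group had 1.76, 2.67 and 2.13 CPM. The gap to the nearest pool was 0.859 of the range of the group. Of 16 groups of 4 pools tested in this way (8 genes in 2 fractions of intact males), 1 stood out, and chance alone gives about 1 in 20. The supernatant of the same pool held 3.05 CPM.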

How the results depend on the processing

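The count of called members over all conditions, 1 in the reported fit, was 2 with the DESeq2 Wald test, 3 in limma voom, 2 with the 1 CPM filter, 2 with a term for library numbering and 4 with the replicate block (the pool), and from 1 to 4 when leaving out 1 library. In intact females it was 1, but 0 in libraries 11 to 30, 2 with the block and 0 to 1 without 1 library. In gonadectomized females 0 became 1 with the block. In intact males 2 became 1 in voom, without a filter, in libraries 11 to 30, in libraries 1 to 10 (added after seeing the data) and with the block, and 0 to 2 without 1 library. With the block the 1 member called in intact males was Ptgds (adjusted p 0.0116), while Ptger2 (0.101) and Ptger3 (0.062) both lost their calls. In gonadectomized males 1 became 2 with the block and 0 to 1 without 1 library. The cause was not tested. No alternative called a member in the 12 comparisons of conditions, including the block on the replicate number, whose samples share only a number (correlations of -0.06 to 0.17 and -0.11 to 0.34), with a lowest adjusted p of 0.132; the term for library numbering gave 7 unadjusted p under 0.05, libraries 11 to 30 gave 12 and the block 6.

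Signs turned for Ptger4 over all conditions in voom (-0.72), with the pool block (-0.32) and without the immunoprecipitate of gonadectomized female pool 0 (range -0.15 to 0.36 leaving out 1 library), for Ptgs2 in voom (-0.0061), and for Ptges without the immunoprecipitate of intact female pool 1 (-0.044) or intact male pool 2 (-0.04; range up to 0.26). Ptger3 in intact females was 0.47 in libraries 11 to 30, which hold 1 pool of them, and -1.25 to 0.41 without 1 library. Against that 1 pool, Ptger2 was 1.02 between the sexes of intact mice and 0.43 with female gonadectomy in the immunoprecipitates, and 0.87 for the change of enrichment with intact sex. Of 513 checks of 23 printed differences, 459 kept side and call, 23 lost a call, 19 gained one and 12 changed sign. At 0 to 10 counts, Ptger3, Ptger4 and Ptgs2 are limited by depth.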
